A study of Mus musculus with 34 samples.

Results

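The 18 cortex arrays of mice that carried the R6/2 transgene, of 34 arrays in all, were examined for differences between mice of the same genotype. Members were taken from the titles: 9 arrays of R6/2 mice and 9 of Dble::R6/2 mice, which carried the R6/2 transgene together with 1 disrupted Hdac4 allele. All mice were 15 weeks old, of both sexes, and on a mixed CBA x C57BL/6 background. The paper states that the disrupted Hdac4 allele was made in another strain and would inevitably keep a linked region of that strain's DNA. Mice with the disrupted allele thus did not fully share the background of mice without it. The other 16 arrays, from 8 WT and 8 Hdac4HET mice without the transgene, served as the background. R6/2 mice express a mutant exon 1 fragment of human HTT in addition to both normal mouse alleles, and the Hdac4 allele was disrupted in every cell of the body rather than in neurons alone. The study asked whether a reduced level of HDAC4, a class IIa histone deacetylase, altered the transcriptional dysregulation of R6/2 cortex. Here each probe set was centred on the mean of its genotype, so that a deviation is the log2 level of 1 mouse minus the mean of the 9 mice of its genotype, and deviations within a genotype sum to 0.

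Mice of one genotype differ in cortical RNA for several known reasons. Neuronal activity before death sets the immediate early genes, glucocorticoid release and fasting set another group, and sex sets genes of the X and Y chromosomes. A dissected cortex can hold variable amounts of neighbouring tissue, such as striatum, meninges or choroid plexus, the epithelium that secretes cerebrospinal fluid and makes much of the transthyretin of the brain. On a mixed strain background, genes near a segregating allele can also differ between littermates. In bulk tissue, fewer cells of a type and less RNA per cell cannot be told apart.

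Several features of the arrays bear on every result. Array medians lay between 5.44 and 5.52 on the log2 scale. The second brightest Hdac4 probe set separated the carriers by genotype, at 7.67 to 7.99 (median 7.87) in R6/2 and 7.01 to 7.56 (median 7.26) in Dble::R6/2 mice, with no overlap. At the brightest Hdac4 probe set the ranges overlapped, at 7.54 to 8.14 and 7.32 to 7.80. Sex labels were less sound. The female-specific Xist RNA was either high (11.1 to 12.1, 14 arrays) or low (4.56 to 5.42, 20 arrays), the Y-linked Eif2s3y was its mirror image, and the label went against both genes in 15 of the 34 arrays. Among carriers the label and the genes differed in 1 of 9 R6/2 and 4 of 9 Dble::R6/2 mice. The array labelled R6/2 replicate 2 stood apart: its deviations had a root mean square of 0.363, against 0.151 to 0.252 for the other 17 carriers and 0.149 to 0.221 for non-carriers, and results that rest on it are given with and without it.

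Spread between carriers was slightly larger than between non-carriers. Over 18193 genes, each taken at its brightest probe set, the median within-genotype SD was 0.170 in R6/2, 0.162 in Dble::R6/2, 0.144 in WT and 0.150 in Hdac4HET mice. Pooled, the SD was higher in carriers for 65.5% of genes, with a median ratio of 1.13. Without R6/2 replicate 2 the share was 55.1% and the ratio 1.04. SDs above 0.5 were found for 213 genes (157 without that array), and above 1 for 21. Oxidative phosphorylation genes (median SD 0.106 over 27 genes) and ribosomal protein genes (0.0993 over 16) varied least of the 31 gene lists examined, and choroid plexus markers (0.610) varied most apart from sex-linked genes.

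The 20 most variable genes among the 11303 with a level above the median of all probe sets had SDs of 0.888 to 3.33. They were led by Xist, Eif2s3y, Tmem267, Ttr, which encodes transthyretin, and Ang, a ribonuclease. They included H2-K1, an MHC class I heavy chain, Pttg1, or securin, and Myo7a, an unconventional myosin. As background, the test of R6/2 against WT mice called 26.9% of probe sets (6701 higher and 5426 lower) and that of Dble::R6/2 against Hdac4HET mice 23.1% (5926 higher and 4496 lower), by limma with a Benjamini-Hochberg adjusted p of 0.05 or less. Of the 20 most variable genes, 4 were called in R6/2 and 1 in Dble::R6/2 mice, where 44.9% and 41.9% of the 11303 genes were called. Ttr and Pttg1 were among the 4. Their non-carrier SD was above 0.5 in all 20. In Dble::R6/2 replicates 3 and 6, Pttg1 stood at 6.52 and 6.85. A low value was also found in Hdac4HET mice (lowest 6.76), while the lowest was 10.71 in R6/2 and 10.52 in WT mice. Baiap2l1 likewise had lowest values of 4.18 in Dble::R6/2 and 4.70 in Hdac4HET mice, against 6.43 in R6/2 and 7.06 in WT mice. The part of the Hdac4 allele in these low values was not tested.

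**Figure D1:**
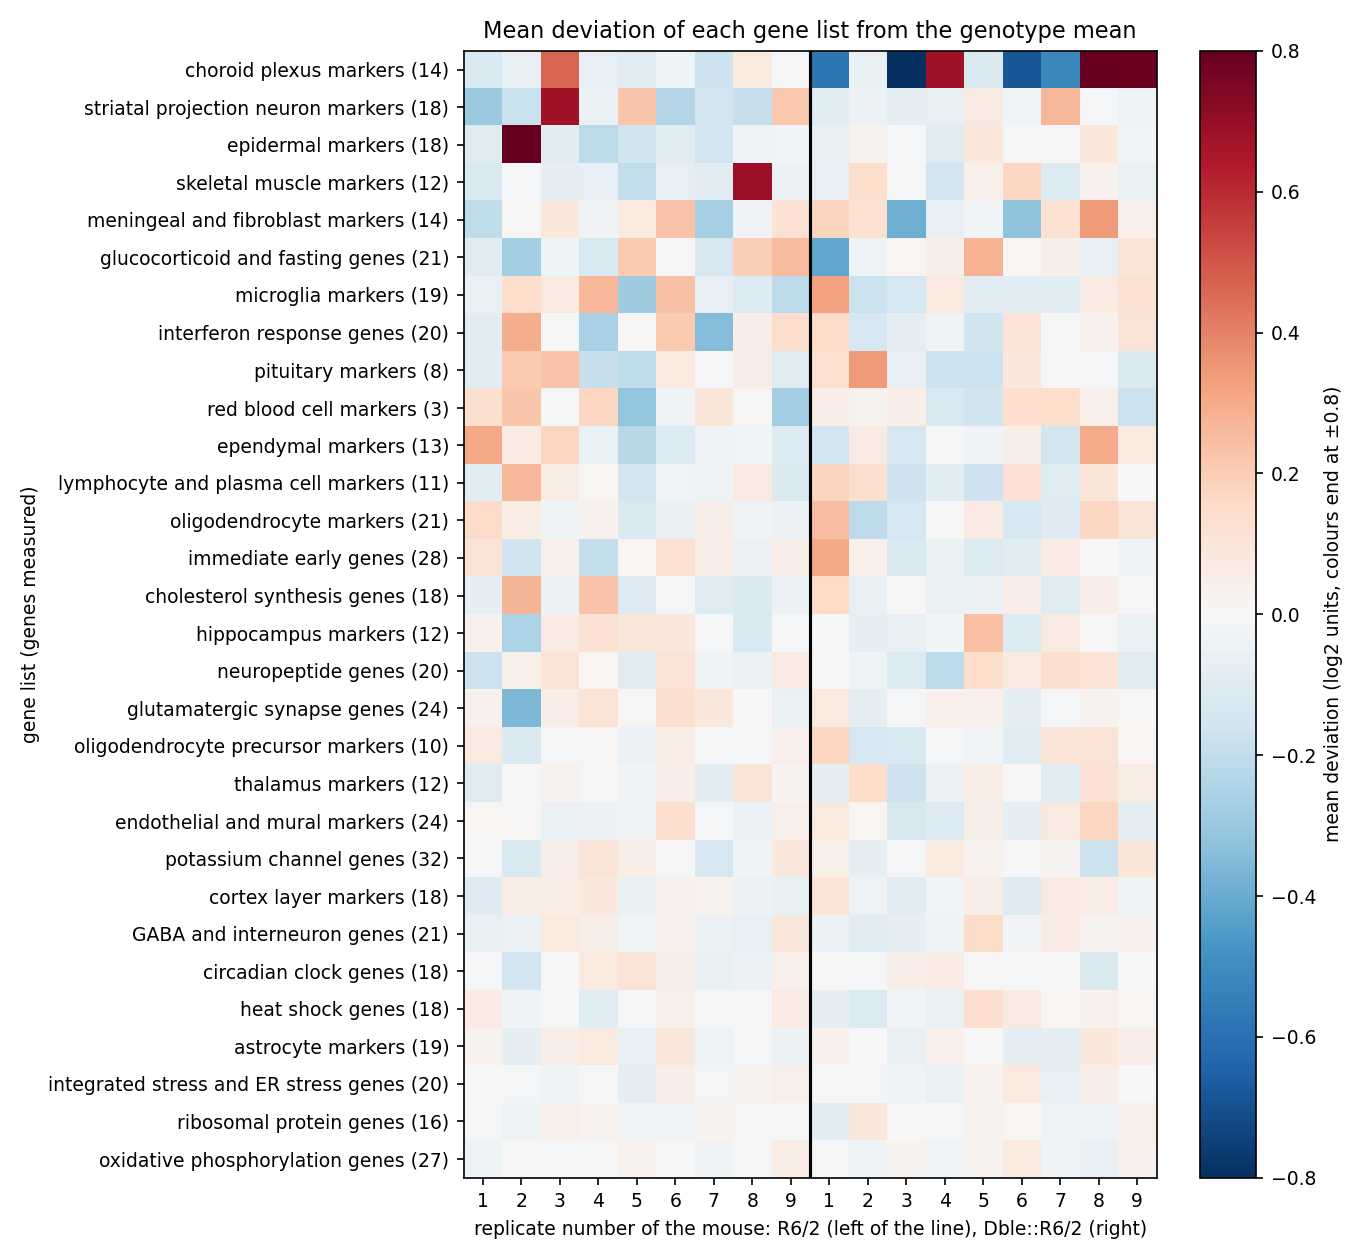
Mean deviation of each gene list (rows) in each of the 18 carrier mice (columns), in log2 units from the mean of the mouse's genotype, with red above and blue below that mean and the colours ending at ±0.8. Choroid plexus markers vary most among Dble::R6/2 mice (1.30 in replicate 8, -0.81 in replicate 3), and single mice stand out for epidermal (R6/2 replicate 2), skeletal muscle (R6/2 replicate 8) and striatal markers (R6/2 replicate 3).

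Choroid plexus markers varied together, and much more so among Dble::R6/2 than among R6/2 mice. Over the 14 measured markers the median SD was 0.819 in Dble::R6/2, 0.206 in R6/2 and 0.210 in non-carriers. The median correlation between pairs of markers, across mice, was 0.82 in Dble::R6/2 and 0.40 in R6/2 mice, against 0.33 in WT, 0.35 in Hdac4HET and 0.06 over pairs of all genes in carriers. Averaged over the list, Dble::R6/2 replicates 8, 9 and 4 lay 1.30, 0.79 and 0.68 above their genotype mean, and replicates 3, 6, 1 and 7 lay at -0.81, -0.68, -0.58 and -0.52. All but 1 of the 14 markers lay above the mean in replicate 8, and only 1 did so in each of replicates 1, 3, 6 and 7. R6/2 mice ranged from -0.17 to 0.08, apart from replicate 3 at 0.47, in which all 14 markers were above the mean.

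Ttr ranged from 9.75 through a median of 10.67 to 12.99 (replicate 3) in R6/2 mice. In Dble::R6/2 mice it ranged from 8.52 (replicate 3) through 12.46 to 13.93 (replicate 8). WT mice spanned 8.41 to 11.19 and Hdac4HET mice 8.94 to 12.20. The Dble::R6/2 range was the widest of the 4 genotypes and overlapped all the others. Dble::R6/2 replicates 2 and 5 did not follow the list: their Ttr was high, at 12.46 and 12.51, while their list means were -0.06 and -0.12.

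Other markers were high in a few Dble::R6/2 mice. Sostdc1, a secreted BMP and Wnt antagonist, had a lowest, median and highest value of 4.61, 4.75 and 5.22 in R6/2 and of 4.51, 4.90 and 8.11 in Dble::R6/2 mice. At this brightest Sostdc1 probe set all 18 carriers lay above the highest WT mouse (4.42), although the ranges of Hdac4HET and carrier mice overlapped. At a second Sostdc1 probe set the lowest R6/2 (4.01) and Dble::R6/2 mice (3.84) lay below the highest WT mouse (4.09). Folr1, a folate receptor, took the values 3.91, 4.15 and 4.46 in R6/2 and 3.73, 4.50 and 6.41 in Dble::R6/2 mice. Otx2, a homeodomain factor of the choroid epithelium, took the values 2.93, 3.10 and 3.57 in R6/2 and 2.92, 3.35 and 5.45 in Dble::R6/2 mice. Levels near 3 are among the lowest of the arrays, so the lower ends of these ranges cannot be read as expression.

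**Figure D2:**
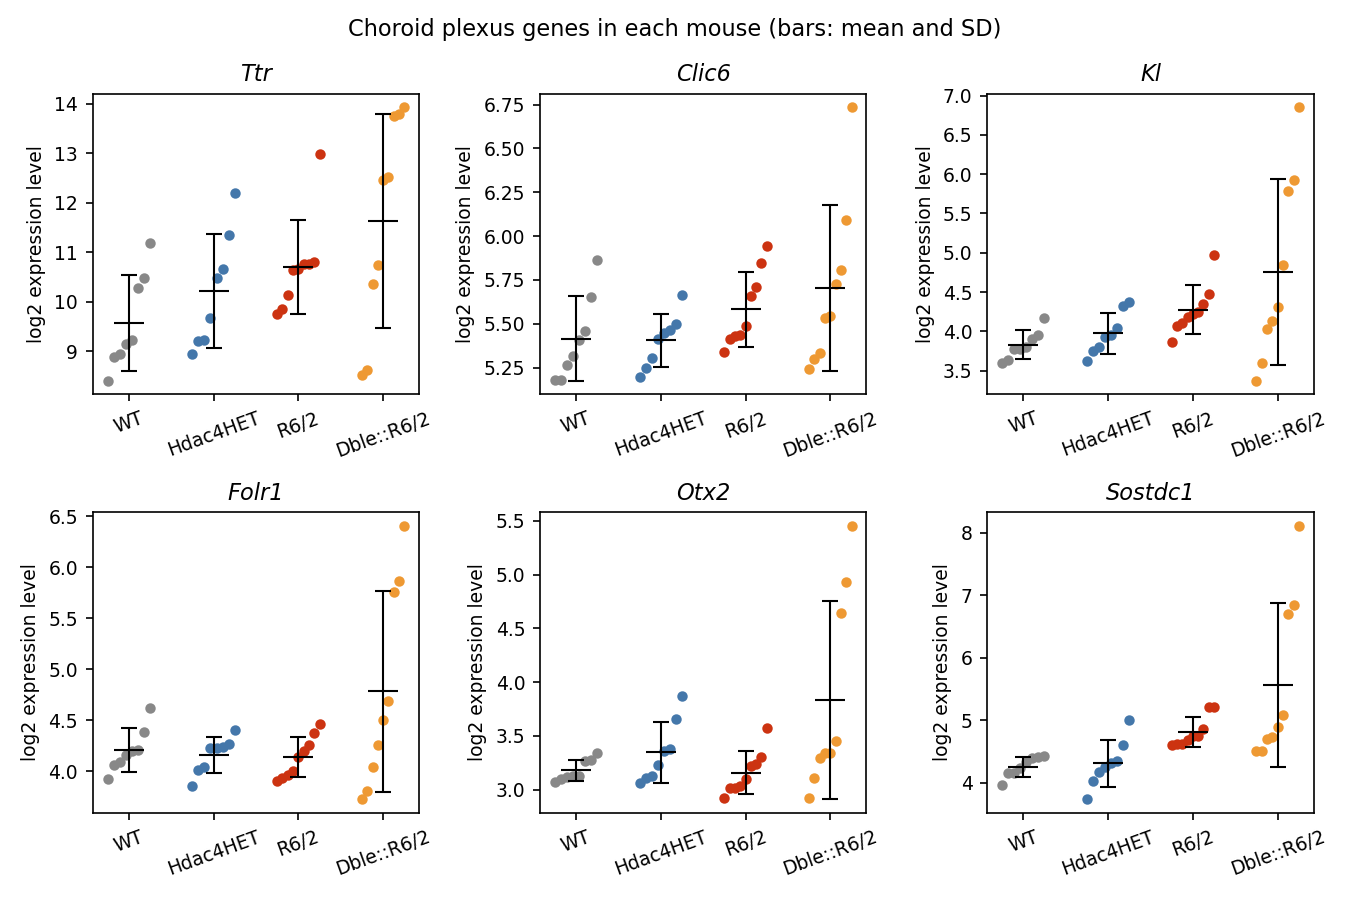
Log2 level of 6 choroid plexus markers (Ttr, Clic6, Kl, Folr1, Otx2 and Sostdc1) in every mouse, by genotype (bars: mean ± SD). Points of Dble::R6/2 mice spread furthest in each panel, as for Sostdc1, where 9 Dble::R6/2 mice run from 4.51 to 8.11 and 9 R6/2 mice from 4.61 to 5.22.

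Unequal spread was tested on absolute deviations in 1 limma fit over all 34 arrays. Of all probe sets, 0.0222% differed in spread between Dble::R6/2 and R6/2 mice, 9 wider and 1 narrower in Dble::R6/2. They covered 4 of the 14 choroid plexus markers, all wider in Dble::R6/2. Sostdc1 had SDs of 1.31 and 0.24 (adjusted p = 0.00838), Otx2 of 0.92 and 0.20 (0.00706), Folr1 of 0.98 and 0.20 (0.0149), and Kcne2, a potassium channel subunit, of 0.80 and 0.22 (0.00706). A second Sostdc1 probe set also passed, with SDs of 1.62 and 0.40 (0.0180). Coagulation factor V (F5) and the integrin subunit Itgav were also wider, as was Dmp1, a bone matrix protein, and the oxidase Aox1 was narrower. In R6/2 mice Otx2 lay at 2.93 to 3.57, Kcne2 at 3.06 to 3.65, F5 at 3.08 to 3.48 and Itgav at 3.25 to 3.40. These are among the lowest levels of the arrays, so the small R6/2 SDs of these genes cannot be read as a narrow spread of expression. Of the 14 markers 13 had a larger spread in Dble::R6/2 mice, against 46.5% of all probe sets, and the median difference was 0.51 against -0.00 over all. No probe set passed without Dble::R6/2 replicate 4, 8 or 9 (3165, 3100 and 3181 at unadjusted p of 0.05 or less), and none with squared in place of absolute deviations. Leaving out R6/2 replicate 1, 3 or 7 or Dble::R6/2 replicate 1, 2, 5 or 7 gave 19 to 24 calls.

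Other tissue lists moved with the choroid plexus list in some of these mice but not in others. Meningeal and fibroblast markers (14 genes) were lowest in Dble::R6/2 replicates 3 and 6 (-0.39 and -0.32) and highest in replicate 8 (0.34). In replicates 1 and 7, which were low for choroid plexus markers, the meningeal list lay above the mean, at 0.18 and 0.12. In replicates 4 and 9, which were high for choroid plexus markers, it lay at -0.07 and 0.04. Ependymal markers were highest among Dble::R6/2 mice in replicate 8, at 0.30, and stood at 0.04 in replicate 6. The part of dissected tissue in the choroid plexus result was not tested.

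Ttr served as the index of this list in a test of co-variation across the 18 carriers, with genotype in the model. Its level was associated with 0.0178% of probe sets, or 8, all in the same direction. Per log2 unit of Ttr, Clic6, an intracellular chloride channel, was higher by 0.64 (adjusted p = 0.00175) and Kl, which encodes klotho, by 0.46 (0.00561). Kcnj13, a potassium channel of epithelia, was higher by 0.33, Calml4 and Ecrg4 by 0.43 each, the splicing factor Prpf19 by 0.29 and the carbonic anhydrase Car12 by 0.28. Among the 13 other list members all 13 slopes were positive, and 12 reached an unadjusted p of 0.05 or less, as did 1.58% of all probe sets with a positive slope. In R6/2 mice alone 3 of the 13 did so and in Dble::R6/2 mice alone 12 did. The count of 8 fell to 2 without Dble::R6/2 replicate 3 or 9 and to 4 without replicate 4, and was 15 without replicate 2.

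Against WT, 6 of the 14 choroid plexus markers rose in R6/2 mice, and 2 rose in Dble::R6/2 against Hdac4HET mice. Of all 45037 probe sets, 6701 and 5926 rose in these comparisons, so the Dble::R6/2 count was near the background share. Ttr rose by 1.14 in R6/2 (adjusted p = 0.0476), while its difference of 1.41 in Dble::R6/2 mice missed the threshold (0.211). At its brightest probe set Sostdc1 rose in both, by 0.56 (0.000243) and 1.25 (0.0378). At its second probe set it rose by 0.94 in R6/2 mice (0.000107), while the difference of 1.40 in Dble::R6/2 mice missed the threshold (0.0592). The mean change of these genes in Dble::R6/2 mice thus came with a spread between mice of similar size, since the SD of Ttr was 2.15 and that of Sostdc1 1.31.

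Single mice carried other tissue signatures. In R6/2 replicate 2 the 18 epidermal markers averaged 0.85 above the genotype mean, where the other R6/2 mice ranged from -0.21 to -0.02 and Dble::R6/2 mice from -0.10 to 0.09. Dsp, or desmoplakin, was at 6.55 in that mouse against 2.92 to 3.52 in the other R6/2 mice, the cornification gene Krtdap at 6.52 and the keratin Krt1 at 8.37. Without this array the median correlation between epidermal markers fell from 0.36 to 0.09. In R6/2 replicate 8 the 12 skeletal muscle markers averaged 0.68, with the fast troponin Tnnc2 at 6.26 and the myosin Myh1 at 5.15. A non-carrier, Hdac4HET replicate 7, had a higher muscle value of 1.64. For pituitary markers the SD of the list mean was 0.160 in carriers, against 0.837 in non-carriers, where WT replicate 6 (1.74) and Hdac4HET replicate 1 (1.38) were highest. The median level of these markers in carriers was low, at 4.03, so their small SD there cannot be read as a narrow spread of expression.

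Spread between carriers and non-carriers differed for 0.0488% of probe sets, 12 wider and 10 narrower in carriers. Named genes among the narrower ones were Prl, or prolactin (SD 0.185 against 2.80), Gh, growth hormone, with 3 probe sets, Apc2 and Ccdc25, and the other 4 probe sets had no single gene name. Prl was at 3.06 to 3.78 in every carrier, while WT mice reached 12.1 and Hdac4HET mice 9.22. Among the wider ones were Kcne2 (0.587 against 0.0830), the imprinted zinc finger gene Peg3 (0.242 against 0.0688), Rapgef2 and the translation termination factor gene Gspt1. Kcne2 lay at 2.89 to 3.11 in WT and at 3.05 to 3.26 in Hdac4HET mice. These levels, and those of Prl in carriers, are among the lowest of the arrays. The small SDs of Prl in carriers and Kcne2 in non-carriers thus cannot be read as a narrow spread of expression. Leaving out 1 carrier gave 10 to 42 calls: 10 to 14 without R6/2 replicate 5 or 9 or Dble::R6/2 replicate 4, 7, 8 or 9, and 38 and 42 without R6/2 replicate 4 and Dble::R6/2 replicate 5. Squared deviations gave none, with 3954 at unadjusted p of 0.05 or less in the test as run.

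Striatal projection neuron markers also varied together. Their median pairwise correlation over carriers was 0.50, with 0.44 for skeletal muscle and 0.43 for meningeal and fibroblast markers. The median correlation between pairs of the 18 markers was 0.64 in R6/2 and 0.21 in Dble::R6/2 mice, against 0.37 in WT and 0.55 in Hdac4HET mice. R6/2 replicate 3 averaged 0.67 above its genotype mean, and Dble::R6/2 replicate 7 was the highest of its genotype at 0.27. Penk, the enkephalin precursor of indirect pathway neurons, had a lowest, median and highest value of 7.54, 8.12 and 9.23 in R6/2 mice, the highest in replicate 3. The orphan receptor Gpr6 took the values 3.78, 4.27 and 5.99 in R6/2 and 3.24, 3.69 and 4.36 in Dble::R6/2 mice. Penk fell in R6/2 and Dble::R6/2 mice by 1.17 and 1.59, and its highest R6/2 value only just met the lowest WT value of 9.22.

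With Ppp1r1b, which encodes DARPP-32, as the index, no probe set passed (0%, and 3567 at unadjusted p of 0.05 or less). All 17 other list members had positive slopes, 11 of them at unadjusted p of 0.05 or less, as did 3.52% of all probe sets with a positive slope. The strongest associations were with Hrh3, a histamine receptor (0.70), Penk (0.96), and against Slc17a6, the vesicular glutamate transporter of subcortical neurons (-0.95), all at an adjusted p of 0.270 or more. Leaving out R6/2 replicate 2 gave 2 calls, and Dble::R6/2 replicate 7 gave 1. R6/2 replicate 3 was also the R6/2 mouse with the highest Ttr and choroid plexus markers. Cortex layer markers did not vary as a group, with a median pairwise correlation of 0.01.

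Immediate early genes, which neuronal activity induces, varied less among carriers than among non-carriers. The SD of their list mean was 0.122 in carriers and 0.343 in non-carriers, 4 of the 28 genes had a larger spread in carriers, and none of the 28 passed the spread test. Of the 28, 21 fell in R6/2 and 25 in Dble::R6/2 mice. Falls were called for 5426 and 4496 of all 45037 probe sets. Arc, a synaptic immediate early gene, had a lowest, median and highest value of 7.06, 8.18 and 8.52 in R6/2 mice and of 7.51, 7.66 and 8.30 in Dble::R6/2 mice. Every carrier lay below the lowest non-carrier, as WT mice spanned 9.10 to 10.30 and Hdac4HET mice 8.57 to 11.20. With Arc as the index no probe set passed (0%, and 3147 at unadjusted p of 0.05 or less). Of 27 other immediate early genes 22 had a positive slope, 9 at unadjusted p of 0.05 or less, with 2.35% of all probe sets doing so. Junb, a component of AP-1, and the phosphatase gene Dusp1 were among the 6 strongest, at 0.80 and 0.44 (adjusted p = 0.715 for both). Without R6/2 replicate 4, which had the lowest Arc, 110 probe sets passed.

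Glucocorticoid and fasting genes were among the more variable functions, with a median SD of 0.30 over 21 genes. Dble::R6/2 replicate 1 was lowest at -0.42 and replicate 5 highest at 0.28, and R6/2 mice ranged from -0.27 (replicate 2) to 0.25 (replicate 9). Plin4, a lipid droplet coat protein, had a lowest, median and highest value of 6.20 (replicate 1), 7.89 and 8.62 (replicate 5) in Dble::R6/2 mice. In R6/2 mice it took the values 6.59 (replicate 2), 7.58 and 8.13. The lowest carriers thus overlapped WT mice (5.02 to 6.94), and all carriers lay above Hdac4HET mice (4.64 to 5.48). Plin4 rose by 1.61 in R6/2 and 2.59 in Dble::R6/2 mice. It was 1 of 8 list genes that rose in R6/2 and 11 in Dble::R6/2 mice. Over all 45037 probe sets, 6701 rose in R6/2 and 5926 in Dble::R6/2 mice. The sulfotransferase gene Sult1a1 and Cdkn1a, which encodes the cell cycle inhibitor p21, rose in both.

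With Sgk1, a kinase gene that glucocorticoids induce, as the index, 0.0244% of probe sets passed. These were 11, among them Gabra5, a GABA-A receptor subunit, higher by 0.99 per log2 unit of Sgk1, and the matrix gene Matn2, by 1.25 (adjusted p = 0.0365 for both). The amine oxidase gene Aoc3 was lower by 0.58 (slope -0.58). No member of the glucocorticoid list passed, and 15 of 20 had a positive slope. Sgk1 itself covered a narrow range, 10.08 to 10.64 in R6/2 and 9.62 to 10.61 in Dble::R6/2 mice. The count went to 0 without R6/2 replicate 3, 5 or 9 or Dble::R6/2 replicate 2 or 9, and to 2309 without Dble::R6/2 replicate 1. It was 1 to 6 without R6/2 replicate 1 or 8 or Dble::R6/2 replicate 3, 4 or 7, and 17 without R6/2 replicate 7.

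Immune lists varied with a moderate degree of coherence. Interferon response genes had a median pairwise correlation of 0.32, with R6/2 replicate 7 lowest (-0.35) and replicate 2 highest (0.29). Their most variable members were the MHC class I genes H2-K1 and H2-D1. H2-K1 had a lowest, median and highest value of 6.65, 8.22 and 9.35 in R6/2 and of 6.59, 7.90 and 8.31 in Dble::R6/2 mice. WT mice covered much the same range, 6.97 to 9.27, and neither transgene test called the gene (adjusted p = 0.846 and 0.686). Ifit1, an interferon-induced antiviral gene, in contrast rose by 1.57 and 1.20 and ranged from 5.63 to 7.47 in R6/2 mice, all above the highest WT mouse (5.11). Microglia markers, of which 10 and 12 of 19 fell in the 2 comparisons, were lowest in R6/2 replicate 5 (-0.28) and highest in Dble::R6/2 replicate 1 (0.32). Of all 45037 probe sets, 5426 and 4496 fell in these comparisons. The purinergic receptor gene P2ry12 spanned 4.64 to 7.36 in R6/2 and 4.87 to 7.52 in Dble::R6/2 mice.

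Index genes for the clock, myelin and endothelium gave no call. For Dbp, a clock output gene, 0% passed, with 804 at unadjusted p of 0.05 or less. For Mog, a myelin protein gene, 0% passed, with 4104 at that level. Among its 20 fellow oligodendrocyte markers 18 had a positive slope, 8 at unadjusted p of 0.05 or less, with 3.61% of all probe sets doing so. For Cldn5, a tight junction gene of endothelium, 0% passed, with 5883 at that level, and 15 of 23 fellow markers had a positive slope. Leaving out R6/2 replicate 3 gave 5 calls with Cldn5, and leaving out Dble::R6/2 replicate 2 gave 1.

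Few probe sets varied with sex. The test of labelled sex among carriers called 0% of probe sets (3655 at unadjusted p of 0.05 or less). With the level of Xist in its place, chosen after the disagreement of labels and genes was seen, 0.0377% passed, or 17. Apart from 7 probe sets without a single gene name, these were the Y-linked Eif2s3y (-0.93 per log2 unit of Xist), Kdm5d and Uty, the X-linked Eif2s3x (0.08) and Prg4, or lubricin (0.17, adjusted p = 0.0378).

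A few genes were present at 2 separate levels irrespective of the transgene. Of 11303 genes searched, 8 had values in the 18 carriers that fell into 2 classes of at least 4 mice, at least 1 log2 unit apart, with at least 85% of the variance between classes. Besides Xist and Eif2s3y these were Tmem267, Tmem87a, Tmem181a, Ang, Sox2ot and Dnajc7. Tmem267 lay at 3.57 to 5.40 in 10 carriers and at 7.25 to 8.32 in 8. The gaps were 1.86 for Tmem267, 1.83 for Tmem87a, 1.71 for Tmem181a, 1.27 for Ang, 1.13 for Sox2ot and 1.09 for Dnajc7. None of the 8 was called against non-carriers in either comparison. Between 10 (Ang) and 16 (Dnajc7) of the 16 non-carriers also lay outside the gap. For Tmem181a 5 were in the low class, 9 in the high class and 2 between, and for Dnajc7 2 were low, 14 high and 0 between.

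**Figure D3:**
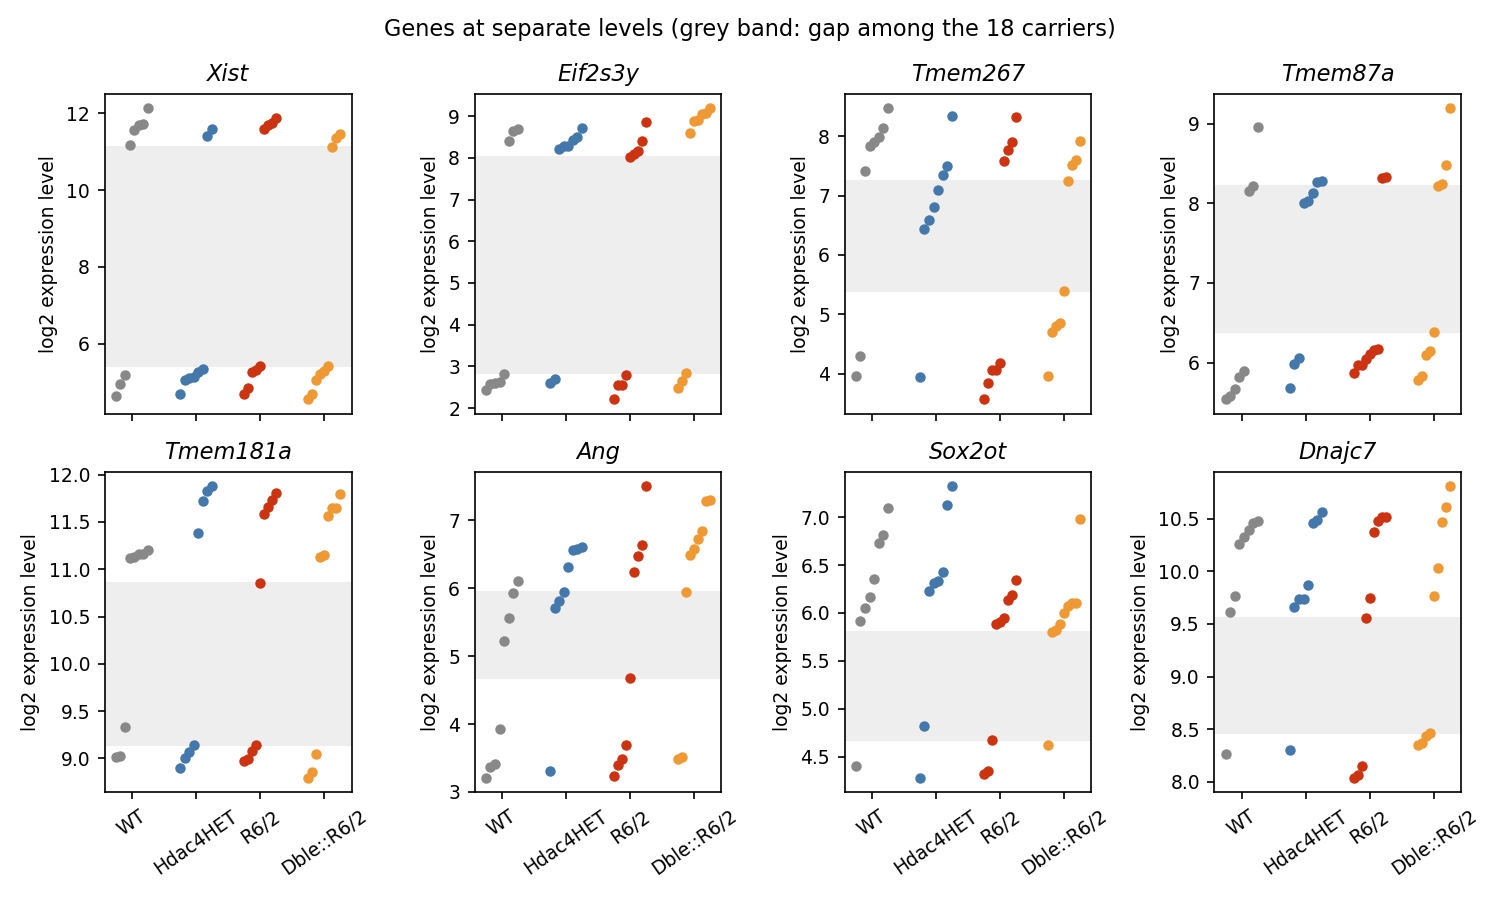
Log2 level of the 8 genes with 2 separate levels in every mouse of the 4 genotypes, with the gap between the classes of carriers shaded grey. Both classes are found in each carrier genotype, and for Tmem181a 14 of 16 non-carriers also lie outside the gap.

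Probe sets that varied with these genes were often their chromosomal neighbours, within 5 Mb. With Tmem267, 0.0155% of probe sets passed, and 5 of these 7 were neighbours, against 0.143% of all placed probe sets within that distance. They included Nnt, which encodes the mitochondrial transhydrogenase, but most of the 5 were probe sets of the same gene, 4833420G17Rik. With Tmem87a, 0.0333% passed, and 8 of the 15 were neighbours, among them Mga, Trp53bp1 (at more than 1 probe set) and Ppip5k1, against 0.665%. These counts are thus of probe sets and not of separate genes. With Ang, 0.0222% passed, and 5 of 10 were neighbours, Rpgrip1 (0.53) and Tox4 among them, against 0.694%. With Tmem181a, 0.0222% passed, 2 of them neighbours, the chemokine receptor Ccr6 and Dynlt1f, and 8 without a single gene name. With Sox2ot, 0.00666% passed, and 2 of 3 were neighbours (Exosc9 and Ttc14). With Dnajc7, 0.00444% passed: Gfap, the intermediate filament of astrocytes and a neighbour, higher by 0.99, and Twist1 (-0.37). The Dnajc7 calls did not hold up: the count was 0 under each other setting of the whole set of carriers, and 0 to 2 when 1 carrier was left out, reaching 2 only without Dble::R6/2 replicate 1. With Ang, the count was 5 without R6/2 replicate 4 or Dble::R6/2 replicate 6, 6 without replicate 8 of R6/2 or 4 of Dble::R6/2, and 16 without R6/2 replicate 6. With Tmem87a it was 37 without Dble::R6/2 replicate 1 and 25 without replicate 2 or 5, with Tmem267 11 without Dble::R6/2 replicate 6, and with Sox2ot 1 without Dble::R6/2 replicate 2. The build of the deposited annotation was not given, so neighbours were placed by gene symbol on GRCm38.p6.

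Variation was next set against the direction of the transgene effect. For each mouse a score was taken as the mean deviation over the 200 strongest rises minus that over the 200 strongest falls, with genes chosen in the genotype pair that did not hold the mouse. Score SDs were 0.157 in R6/2 and 0.165 in Dble::R6/2, against 0.065 in WT and 0.053 in Hdac4HET mice. Absolute scores averaged 0.127 in 18 carriers and 0.050 in 16 non-carriers, a difference of 0.077 (2-sided permutation test with 100000 resamples, p = 0.00328). Dble::R6/2 replicate 1 had the lowest score, -0.37, and without it the difference was 0.046 (permutation p = 0.0422). The score SD was 8.80% of the whole change in R6/2 (1.78) and 9.48% in Dble::R6/2 mice (1.74). Individual mice stood at 83.5% to 109% of the mean change in R6/2 and at 78.6% to 112% in Dble::R6/2 mice. No carrier came near the non-carriers: the lowest carrier mean of the rises exceeded the highest non-carrier by 0.59 in R6/2 and 0.42 in Dble::R6/2 comparisons, and the falls were separated by 0.73 and 0.76.

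Mice that were above their genotype mean for the rises were not reliably below it for the falls. Over the 18 carriers Pearson's r was -0.35 (permutation p = 0.163, adjusted 0.217) and Spearman's rho was -0.21 (permutation p = 0.423, adjusted 0.582). Without the 2 mice farthest from the median, R6/2 replicate 2 and Dble::R6/2 replicate 1, r was -0.31 (permutation p = 0.270). Without R6/2 replicate 2 alone r was -0.50 (unadjusted permutation p = 0.0465), while rho was -0.37 (permutation p = 0.155). Within R6/2 mice r was -0.19 (exact p = 0.610) and rho -0.18 (exact p = 0.644). Within Dble::R6/2 mice r was -0.56 (exact p = 0.121) and rho -0.30 (exact p = 0.437). Without the 2 mice farthest from the median these r were -0.64 and -0.11. In the 16 non-carriers rises and falls moved the same way, with r of 0.62 (permutation p = 0.00886, adjusted 0.0354) and rho of 0.60 (permutation p = 0.0174, adjusted 0.0695). Without the 2 farthest mice r was 0.74. The p-values were adjusted over 4 relations, and the difference between carriers and non-carriers was not tested.

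Dble::R6/2 replicate 1 lay nearer to non-carriers than other mice of its genotype along this direction. Of the genes that rose in the other pair, 13.2% were above the genotype mean in this mouse. Across 11303 genes its deviations correlated at -0.47 with the change of the other pair, the lowest value of any mouse, where R6/2 mice ranged from -0.28 to 0.18, the other Dble::R6/2 mice reached 0.29 and non-carriers spanned -0.13 to 0.16. These correlations are across genes, which are not independent replicates. The mouse was the highest Dble::R6/2 mouse for immediate early genes (0.31), microglia markers (0.32), oligodendrocyte markers (0.24) and cholesterol synthesis genes (0.16), lists in which most called genes fell. It was the lowest for glucocorticoid and fasting genes (-0.42), in which no called gene fell. Other lists did not follow this order. Interferon response genes, of which 11 of 20 rose and none fell in Dble::R6/2 mice, were also highest in this mouse (0.15). GABA and interneuron genes, of which 16 of 21 fell, were at -0.04. Of all 45037 probe sets, 5926 rose and 4496 fell in Dble::R6/2 mice.

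Pou4f1, a POU domain factor that was among the most elevated genes, was used as the index of the transgene effect. It lay at 7.05, 7.29 and 8.39 (lowest, median and highest) in R6/2 and at 6.93, 7.70 and 8.34 in Dble::R6/2 mice, and did not exceed 4.44 in any non-carrier. The rises were 3.48 and 3.33 on the log2 scale. Between carriers, 8.06% of probe sets varied with it, 1725 in the same direction and 1905 in the opposite direction. Lmna, a nuclear lamin (0.74), Samhd1, a nucleotide hydrolase (0.48) and the survival gene Mcl1 (0.48) varied with it, and the zinc transporter gene Slc39a10 (-1.92) and the adenylate kinase gene Ak5 (-0.87) against it (adjusted p = 0.0120 for all 5). Of the 1725 probe sets, 824 were higher and 35 lower in R6/2 against WT mice, and 493 and 108 in Dble::R6/2 against Hdac4HET mice. Of the 1905, 9 were higher and 1043 lower in R6/2, and 67 and 315 in Dble::R6/2 mice. Over all 45037 probe sets, 6701 were higher and 5426 lower in R6/2, and 5926 and 4496 in Dble::R6/2 mice. Without R6/2 replicate 2, which had the highest Pou4f1 of its genotype, no probe set passed (7649 at unadjusted p of 0.05 or less). The count was 2055 without R6/2 replicate 6, and 1452 and 2290 without Dble::R6/2 replicates 2 and 4. The R6/2 counts were made with this same array in the R6/2 mean.

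**Figure D4:**
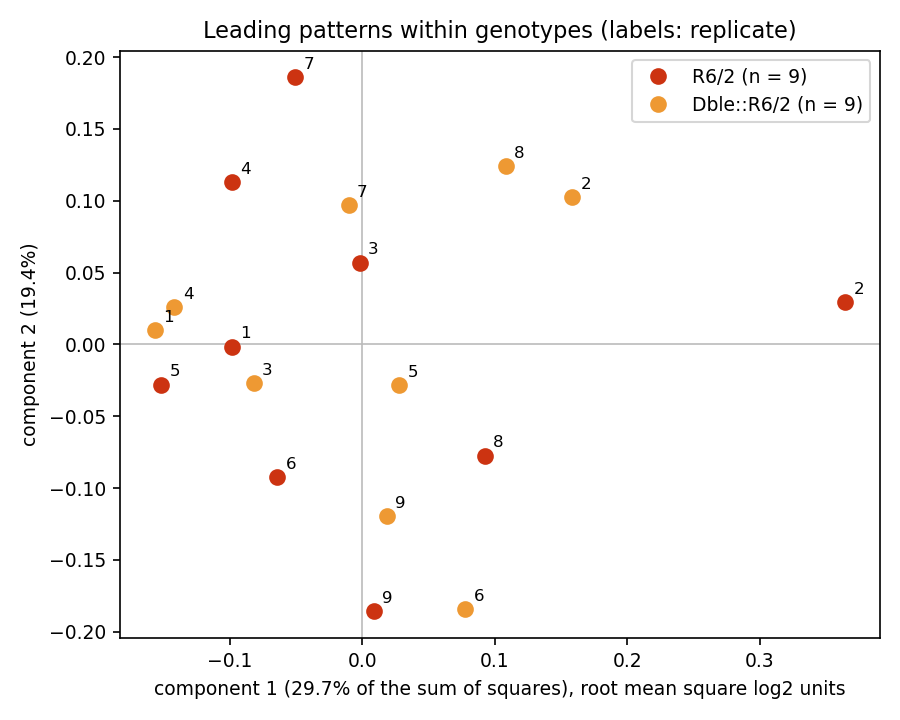
Scores of the 18 carriers on the first and second components of the genotype-centred values, which held 29.7% and 19.4% of the sum of squares, with replicate numbers beside the points and colours for the 2 genotypes. R6/2 replicate 2 lies alone at 0.36 on the first component, while the other mice lie between -0.16 and 0.16.

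The leading component of the residual variation singled out the same array. It held 29.7% of the sum of squares, with R6/2 replicate 2 at 0.36 and the other 17 carriers between -0.16 and 0.16. Its leading genes at one end included the epidermal genes Dsp, Krtdap, Krt6b, Calm4 and Sprr1a and the Y-linked Eif2s3y and Kdm5d. The other end was led by A330076H08Rik and included P2ry12 and Xist. Across carriers, with R6/2 replicate 2 included, this component correlated most with epidermal markers (0.83), glutamatergic synapse genes (-0.81) and clock genes (-0.79). Its correlation with microglia markers was -0.07. In R6/2 replicate 2, 280 of all 18193 genes deviated by more than 1, against 16 to 47 in the other carriers. Glutamatergic synapse genes averaged -0.36 in this array, where the other R6/2 mice ranged from -0.05 to 0.13. The second component held 19.4%, with Ang, Tmem181a, Tmem87a and Rpgrip1 at one end and Xist, H2-K1 and H2-D1 at the other.

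Genes that changed most with the transgene had a larger spread between carriers, but also between non-carriers. With genes chosen in the other pair, those called at a change of at least 2-fold had a median SD of 0.264 in R6/2 (153 genes) and 0.283 in Dble::R6/2 mice (163 genes), against 0.179 and 0.163 for genes not called. The same genes had median SDs of 0.227 in WT and 0.213 in Hdac4HET mice, against 0.141 and 0.150. Genes called at any size of change did not have a larger spread than genes not called. Their median SD was 0.171 in R6/2 (4740 genes) and 0.163 in Dble::R6/2 mice (5072 genes). Across genes, the rank correlation between the size of the change and the SD was 0.13 in R6/2, 0.20 in Dble::R6/2, 0.16 in WT and 0.10 in Hdac4HET mice.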

How the data were processed

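Cortical RNA was labelled with a 3′ IVT kit and hybridised to Affymetrix Mouse Genome arrays, per the labels and the study's methods, and the authors left out arrays of poor quality. Log2 levels of 45037 probe sets were deposited, and the normalization behind them is not given in the sources used here. Of these probe sets 34945 had 1 gene symbol, 932 several and 9160 none, and probe sets without a single symbol were counted but not named. A gene was taken at its brightest probe set. Arrays were grouped by genotype from the titles. Whether replicates came from separate litters was not stated.

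Tests used the moderated linear models of limma 3.58.1 (R 4.3.3), with p-values adjusted by Benjamini-Hochberg over all probe sets,, for each pair of genotypes alone, for the slope on an index gene with genotype as a covariate in the 18 carriers, and for absolute deviations scaled by sqrt(n/(n-1)) over all 34 arrays. Scripts were tested on simulated data. Named genes were the 20 with the largest within-genotype SD among those above the median level, the 6 strongest positive and 4 strongest negative associations of each index gene, up to 10 spread calls each way, 5 genes per mouse, 4 per list, and genes at separate levels. Car12 and other names this rule did not take (chromosomal neighbours, leading genes of components, further list members) and the 7 index genes Xist to Dnajc7 were chosen after their values were seen. Members, lists and tests were chosen with earlier results of these data known. Alternatives were quantile normalization, probe sets above the median level only, trend and robust eBayes, squared deviations, other numbers of genes in the score, Xist or sex as a covariate, a replicate block and each carrier left out. The precision is limited by the number of arrays.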

Additional observations from a re-analysis of the deposited data

Results flagged for a closer look

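In 13 of 86 tests, each of 1 measure in the 9 mice of 1 genotype, 1 mouse lay far from the other 8. Chance gives about 1 in 20 for a single test. The measures came from the same mice and overlap, so the 13 are not independent and cannot be set against that rate. For R6/2 replicate 2 these were the root mean square deviation of 0.363, the first component score of 0.36, epidermal markers at 0.85 and glutamatergic synapse genes at -0.36. For R6/2 replicate 3 they were Ttr at 12.99 and choroid plexus markers at 0.47. For R6/2 replicate 8 skeletal muscle markers stood at 0.68, and for R6/2 replicate 7 Cldn5 stood at 9.43. For Dble::R6/2 replicate 1 they were the transgene score of -0.37, immediate early genes at 0.31 and glucocorticoid and fasting genes at -0.42. For Dble::R6/2 replicate 7 striatal markers stood at 0.27, and for Dble::R6/2 replicate 8 clock genes stood at -0.12.

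The mean absolute deviation differed between Dble::R6/2 and R6/2 mice for 8 named genes, by limma with an adjusted p of 0.05 or less. Dble::R6/2 minus R6/2, the differences were 0.545 for Kcne2, 0.668 for Otx2, 0.666 for F5, 0.967 for Sostdc1, 0.692 for Folr1, 0.192 for Itgav, 1.02 for Dmp1 and -0.213 for Aox1. Dmp1 also varied between non-carriers, with an SD of 0.876. In R6/2 mice Kcne2, Otx2, F5 and Itgav lay among the lowest levels of the arrays, which cannot be read as expression.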

How the results depend on the processing

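Under alternatives other than leaving out a mouse, 97 values of the main results stayed on their side of the threshold and within 1.5 times, and 25 did not. The cause was not tested. The 11 probe sets that varied with Sgk1 became 0 with quantile normalization or with Xist as a covariate, 7 with trend and robust eBayes, 36 with the first component and 180 with labelled sex in the model. The 8 that varied with Ttr became 3 with probe sets above the median level only, 4 with sex and 13 with Xist. With Dnajc7, quantile normalization, the brighter probe sets, trend and robust eBayes, sex, Xist and the first component each gave 0 in place of 2, and with Tmem87a Xist gave 443 in place of 15. Mog gave 3 and Pou4f1 0 with the first component in the model. Calls of unequal spread between carriers and non-carriers were 13 with the brighter probe sets, 8 with trend and robust eBayes, 0 with squared deviations and 42 with Xist regressed out. Between Dble::R6/2 and R6/2 mice they were 2, 0 and 6 for the brighter probe sets, squared deviations and Xist, and trend and robust eBayes or quantile normalization gave 15. The first component held 33.99% of the sum of squares over the brighter probe sets. When the probe sets of each gene were averaged, the extreme list mean was -0.165 for sex-linked genes and 0.0812 for endothelial markers.

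Leaving out 1 carrier in turn gave 0 to 110 calls with Arc, 0 to 2309 with Sgk1, 2 to 15 with Ttr, 0 to 2 with Ppp1r1b, 0 to 5 with Cldn5, 0 to 4240 with Pou4f1, 16 to 23 with Xist, 6 to 11 with Tmem267, 11 to 37 with Tmem87a, 9 to 12 with Tmem181a, 5 to 16 with Ang, 1 to 3 with Sox2ot and 0 to 2 with Dnajc7, and 0 to 0 for sex, Dbp and Mog. Spread calls were 10 to 42 for carriers against non-carriers and 0 to 24 for Dble::R6/2 against R6/2 mice. The difference in score spread was 0.0464 to 0.0866, the correlation of rises and falls -0.50 to -0.18, and the first component 24.7% to 31.6%.

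Same-numbered R6/2 and Dble::R6/2 mice correlated at -0.14 to 0.45 in their deviations, over 0.1 in 6 of 9 pairs, and 1 of 9 R6/2 mice correlated best with its own number, which did not meet the criterion for pairs, every correlation over 0.1. A shared day or batch was not tested. With the number as a replicate block the counts were 0 for Sgk1, 1 for Ttr, 6 for Mog, 132 for Cldn5 and 0 for Pou4f1, and the transgene tests gave 11352 and 8535.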

Other observations

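Several genes set apart 1 to 3 mice. Diaph2, a formin gene, was 2.74 below the genotype mean in R6/2 replicate 3 (deviation -2.74, level 5.03). In R6/2 replicate 2, Lrrc4b, a synaptic adhesion gene, and Mapk8ip1, a JNK scaffold gene, stood at 4.37 and 5.99, with deviations of -2.76 and -2.66. Pdxdc1 deviated by -2.82 in R6/2 replicate 6, by -2.21 in R6/2 replicate 7 and by -3.04 in Dble::R6/2 replicate 8. Soga3 deviated by -2.32 in Dble::R6/2 replicate 6 and by -2.31 in replicate 8, and stood at 6.97 in replicate 3. Its lowest value was 6.45 in Hdac4HET mice, against 8.89 in R6/2 and 8.75 in WT mice.

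Lymphocyte and plasma cell markers (11 genes) had a median pairwise correlation of 0.35 across carriers, against 0.11 in WT and 0.07 in Hdac4HET mice, with R6/2 replicate 2 highest at 0.26. Their median level was low, at 4.03, and their median SD of 0.171 was that of all genes (0.171). The correlation thus cannot be read as variation in the amount of these cells. Heat shock genes (0.04), astrocyte markers (-0.01) and stress response genes (-0.02) had no such correlation.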
